A study of Mus musculus with 6 samples.

Results

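Major histocompatibility complex (MHC) class II molecules carry peptides from endosomes to the cell surface, where CD4 T cells read them. An alpha and a beta chain pair in the endoplasmic reticulum on the invariant chain, which is cut down in endosomes until a peptide editor exchanges its last fragment for an antigen peptide. CD80 and CD86 on the same surface give the T cell its second signal through CD28. Group 2 innate lymphoid cells (ILC2s), lymphocytes of tissues that lack antigen receptors and secrete type 2 cytokines, are known to carry class II in several mouse tissues and to interact with CD4 T cells.

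The genes described here are 9 that were taken by symbol: the class II chains H2-Ab1, H2-Aa and H2-Eb1, the invariant chain Cd74, the transactivator Ciita, the peptide editor chains H2-DMa and H2-DMb1, and the ligands Cd80 and Cd86. All 9 were found among the 27179 gene IDs of the count table, and all 9 passed the filter on low counts. Mouse ILC2s had been sorted through a Chat positive or a Chat negative gate, with 3 libraries from each, numbered 1 to 3 in both. Chat is the enzyme that makes acetylcholine, and it is not given how it was detected for sorting. The sources used here also do not give the tissue, strain, age or any treatment of the mice, nor say whether the libraries of a gate came from separate animals. P-values therefore measure only the spread between these libraries, which may be technical.

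Libraries held between 37154269 and 50361306 counts. Chat stood at 188, 172 and 204 CPM (counts scaled to the library's total, per 1e6) in Chat positive libraries 1 to 3 and at 16.5, 26.6 and 17.1 CPM in Chat negative libraries 1 to 3, as the gates' names say. Its log2 change, Chat positive minus Chat negative, was 3.21, with an edgeR adjusted p of 0.0174, and of 0.0961 with the sample number as a block (0.00241 where the block was fitted without robust dispersions). The libraries of number 2 stood apart from the other 4 in both gates. Of 12967 genes tested, 21.6% were lower and 28.5% higher in both number 2 libraries than in every other library. Each of the 9 genes is therefore also compared between the gates within numbers. In bulk RNA, fewer cells expressing a gene and less RNA per cell cannot be told apart.

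Class II genes share a promoter module, an X box read by the RFX complex followed by a Y box read by NF-Y, to which the CIITA protein binds. RefSeq promoter windows (GRCm38.p6, 250 bases before to 50 after the start) were at hand for 5 of the 9 genes. None was at hand for H2-Ab1, Cd74, Ciita or Cd86. Stretches of 5 class II genes are shown, because such genes share the module and yet were read at very different levels. Printed 5′ to 3′ on the gene's strand, capitals mark exact matches on that strand to the cores GCAAC (X box) and ATTGG (Y box). Matches on the other strand are left in lower case, such as ccaat near the end of the H2-Eb1 stretch. In H2-DMb1 only the Y box core matched exactly, and gtaac upstream of it, a letter away from GCAAC, was not searched for. The last are the class II relatives H2-Oa and H2-Ob.
H2-Aa, chr17:34287842-34287929, minus strand: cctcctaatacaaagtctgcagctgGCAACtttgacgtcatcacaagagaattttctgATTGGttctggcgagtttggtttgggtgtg
H2-Eb1, chr17:34305751-34305837, plus strand: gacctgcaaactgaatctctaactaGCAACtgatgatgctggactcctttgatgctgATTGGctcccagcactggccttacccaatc
H2-DMb1, chr17:34153070-34153159, plus strand: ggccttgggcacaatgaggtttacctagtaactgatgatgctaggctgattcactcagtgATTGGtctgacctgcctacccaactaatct
H2-Oa, chr17:34092278-34092365, plus strand: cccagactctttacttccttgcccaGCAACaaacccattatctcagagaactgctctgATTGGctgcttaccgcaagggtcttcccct
H2-Ob, chr17:34238793-34238877, plus strand: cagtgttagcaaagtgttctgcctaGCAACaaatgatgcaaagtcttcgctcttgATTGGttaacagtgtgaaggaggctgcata

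The cores lie 28 bases apart in H2-Aa and H2-Oa, 27 in H2-Eb1 and 25 in H2-Ob, and ATTGG begins between 43 and 61 bases upstream of the start in all 5 stretches. Searched on both strands, ATTGG was in 37.4% and GCAAC in 35.2% of 32851 promoter windows. GCAAC followed after 20 to 35 bases by ATTGG was in 0.794% of them. Neither the Cd80 window nor either of the 2 H2-DMa windows held that arrangement. The window of the class II gene H2-Eb2, which had 0 counts in all libraries, held it and is not printed. A match of letters describes the window and shows no binding, and the lack of an exact match does not show that a box is absent.

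H2-Ab1, the beta chain of the I-A molecule (Entrez 14961, GRCm38.p6 chromosome 17, 34263227 to 34269418), had the highest level per transcript length of the 9 genes. It stood at 325, 103 and 318 CPM in Chat positive libraries 1, 2 and 3, and at 357, 101 and 349 CPM in Chat negative libraries 1, 2 and 3. Both number 2 libraries were low and the other 4 were high, and the gates overlapped. The means were 248 ± 126 CPM in Chat positive and 269 ± 146 CPM in Chat negative cells (SD, n = 3 each). The log2 change, Chat positive minus Chat negative, was -0.13, with a 95% interval of -1.51 to 1.25 and the quasi-likelihood test of edgeR over all genes gave an adjusted p of 1.

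With the sample number as a block, which removes what the libraries of a number share, the log2 change of H2-Ab1 was -0.10 with an interval of -0.23 to 0.03 (edgeR adjusted p = 0.428). Without both number 2 libraries it was -0.15 (edgeR adjusted p = 0.609). H2-Ab1 was higher in the Chat positive library for 1 of 3 numbers.

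H2-Aa, the alpha chain that pairs with H2-Ab1 in I-A (Entrez 14960, chromosome 17, 34282744 to 34287823), was almost without reads. It had 2, 18 and 15 counts in Chat positive libraries 1 to 3 and 18, 2 and 14 counts in Chat negative libraries 1 to 3, 69 in all, while H2-Ab1 had 64931. Scaled by transcript length, H2-Aa stood at 0.0811 ± 0.0558 CPM per kilobase in Chat positive and 0.0815 ± 0.0603 in Chat negative cells, while H2-Ab1 stood at 205 ± 104 and 222 ± 120 (SD, n = 3 each). In every library the beta chain was above its alpha chain partner. Only 0.599% of the 50-base stretches of the H2-Aa transcript also occur in transcripts of another gene, and none of those of H2-Ab1 do. No exon of H2-Aa overlaps that of another annotated gene. A low count in this table does not show that a gene is silent. Rpl13, a ribosomal protein gene that every cell uses, had 37 to 74 counts beside 29123 to 37066 for Rpl4. Sequence sharing and overlap were not checked for Rpl13, and whether H2-Aa lost reads in the same way was not tested. The log2 change of H2-Aa between the gates was -0.02 with an interval of -2.21 to 2.18 (edgeR adjusted p = 1), and 0.07 with the block (interval -2.09 to 2.23, edgeR adjusted p = 0.981), so that only a very large change would have been detectable at this depth.

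H2-Eb1, the beta chain of the I-E molecule (Entrez 14969, chromosome 17, 34305867 to 34316674), was also sparse. It stood at 0.296, 0.695 and 0.571 CPM in Chat positive libraries 1 to 3 and at 0.729, 0.998 and 0.567 CPM in Chat negative libraries 1 to 3, from 11 to 43 counts each. The gates overlapped, and its log2 change of -0.56 (interval -1.69 to 0.57) did not pass (edgeR adjusted p = 1). With the block it was -0.60 (interval -1.71 to 0.52, edgeR adjusted p = 0.597). Its alpha partner H2-Ea, which RefSeq lists as a transcribed pseudogene in the C57BL/6J genome, had 0 counts in all 6 libraries, as had H2-Eb2. At a count of 0, counting error alone allows a level of up to 3 counts (0.0807 CPM where the total was lowest).

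Cd74, the invariant chain that escorts class II chains to endosomes (Entrez 16149, chromosome 18, 60803849 to 60812652), was measured at 25.3, 28.5 and 18.2 CPM in Chat positive libraries 1 to 3. In Chat negative libraries 1 to 3 it stood at 20.9, 28.5 and 13.8 CPM. The order over numbers was the same in both gates, with number 2 highest and number 3 lowest, which is not the order of H2-Ab1. The means were 23.98 ± 5.26 CPM in Chat positive and 21.1 ± 7.36 CPM in Chat negative cells (SD, n = 3 each). The log2 change was 0.17 (interval -0.50 to 0.84, edgeR adjusted p = 1) and 0.21 with the block (interval -0.05 to 0.46, edgeR adjusted p = 0.404).

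**Figure D1:**
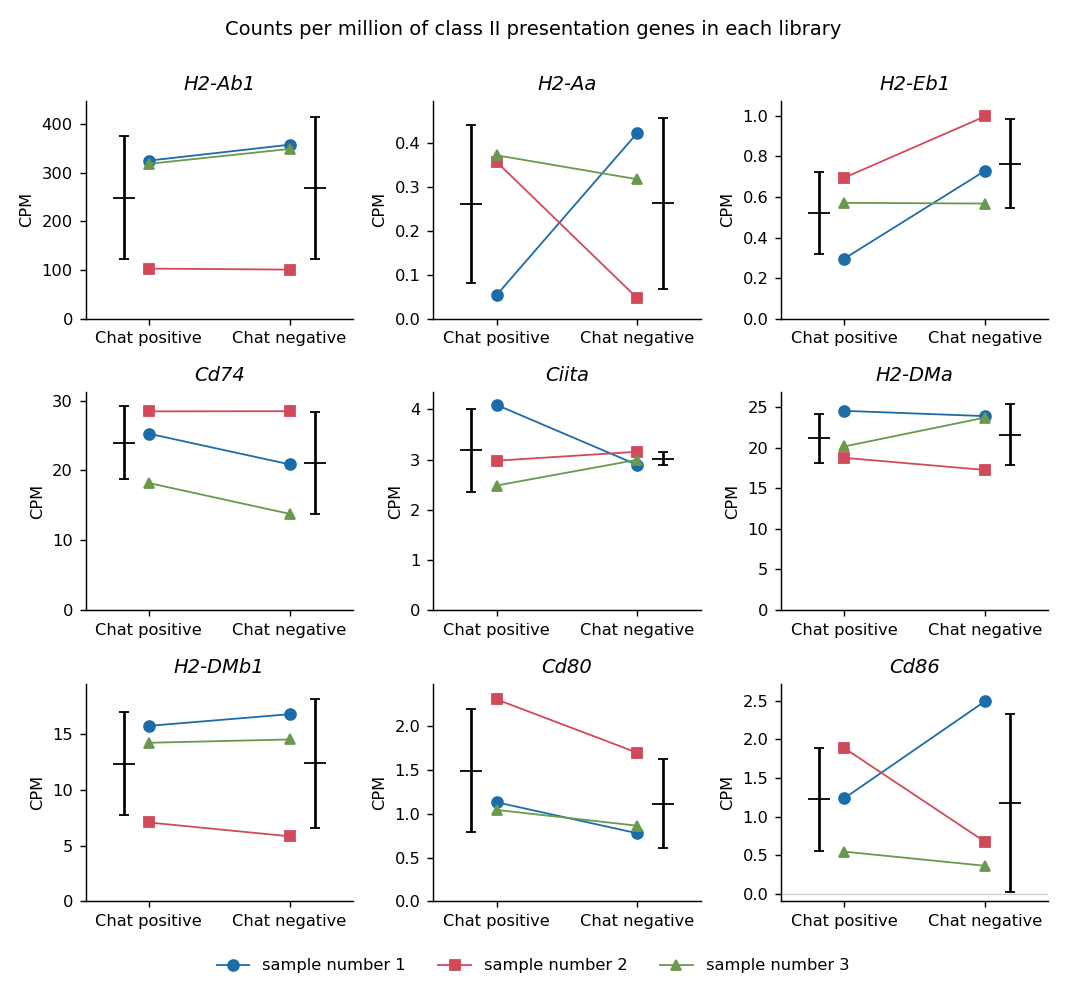
CPM of the 9 genes (vertical axes, linear from 0) in Chat positive libraries on the left and Chat negative libraries on the right of each panel. Lines join libraries of the same sample number, and black bars give the mean ± SD of 3 libraries; H2-Ab1 and H2-DMb1 are low, and Cd74 and Cd80 high, in both number 2 libraries, and the gates overlap in every panel.

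Ciita, the transactivator without which class II genes are not transcribed in antigen-presenting cells (Entrez 12265, chromosome 16, 10480014 to 10531064), had 100 to 152 counts per library. It stood at 4.09, 2.98 and 2.48 CPM in Chat positive and 2.89, 3.16 and 3.00 CPM in Chat negative libraries 1 to 3. Ciita did not separate the gates or follow number 2, and it was the most even of the 9 genes after H2-DMa, with a highest value 1.65 times the lowest. Its log2 change was 0.06 (interval -0.57 to 0.70, edgeR adjusted p = 1), and 0.03 with the block (interval -0.53 to 0.59, edgeR adjusted p = 0.963). Its exons overlap those of Dexi on the opposite strand over 329 of 9535 bases, and without a known strand setting the reads there cannot be told apart.

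The peptide editor H2-DM is made of H2-DMa and H2-DMb1. H2-DMa (Entrez 14998, chromosome 17, 34119693 to 34139101) stood at 24.55, 18.8 and 20.2 CPM in Chat positive and 23.9, 17.3 and 23.7 CPM in Chat negative libraries 1 to 3. H2-DMb1 (Entrez 14999, chromosome 17, 34153191 to 34160229) stood at 15.8, 7.09 and 14.25 CPM in Chat positive and 16.8, 5.85 and 14.55 CPM in Chat negative libraries 1 to 3. Both were lowest in number 2 within each gate. Their log2 changes between the gates were -0.05 (interval -0.51 to 0.41) and -0.02 (interval -1.10 to 1.06), each with an edgeR adjusted p of 1. With the block the intervals were -0.29 to 0.21 for H2-DMa (edgeR adjusted p = 0.885) and -0.27 to 0.32 for H2-DMb1 (edgeR adjusted p = 0.936). H2-DMb1 shares 27.2% of its 50-base stretches with other genes, most with its close copy H2-DMb2 at 0 to 6 counts, so its value is uncertain to that extent. H2-DMa overlaps Brd2 on the opposite strand over 360 of 3448 exonic bases.

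Cd80 and Cd86, the ligands of the T cell receptors CD28 and CTLA-4, were both near 1 CPM. Cd80 (Entrez 12519, chromosome 16, 38457430 to 38495958) stood at 1.13, 2.303 and 1.043 CPM in Chat positive and 0.776, 1.69 and 0.862 CPM in Chat negative libraries 1 to 3. How many of all genes were higher in the Chat positive library for all 3 numbers was not computed. Of the 9, Cd80 alone was so, but the gates overlapped. Its log2 change was 0.41 (interval -0.73 to 1.55, edgeR adjusted p = 1), and 0.40 with the block (interval -0.38 to 1.18, edgeR adjusted p = 0.607). Cd86 (Entrez 12524, chromosome 16, 36568956 to 36666158) stood at 1.24, 1.89 and 0.546 CPM in Chat positive and 2.49, 0.673 and 0.363 CPM in Chat negative libraries 1 to 3. Its order over numbers differed between the gates, and its log2 change was 0.04 (interval -1.796 to 1.88, edgeR adjusted p = 1), 0.30 with the block (interval -0.88 to 1.49, edgeR adjusted p = 0.816) and -0.70 without both number 2 libraries (edgeR adjusted p = 0.838).

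None of the 9 genes passed the 5% threshold between the gates, where 0.00771% of all genes tested passed, namely Chat alone. At an unadjusted p under 0.05 in edgeR the count was also 0 of 9, against 2.43% of all genes, and DESeq2, which called 0.0308% of all genes, and limma-voom called none of the 9 either. None of the 9 had gates that did not overlap, against 8.32% of all genes (5.28% higher and 3.04% lower in Chat positive libraries). The median log2 change was -0.02 over the 9 genes, 4 of them above 0, and 0.00 over all 12967 genes. With the block edgeR called 44 genes, 0.339% of those tested, and 1 gene without robust dispersions, and again none of the 9. Intervals differed widely between the genes. With the block the interval of H2-Ab1 was the narrowest of the 9, and that of H2-Aa, at -2.09 to 2.23, was the widest.

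**Figure D2:**
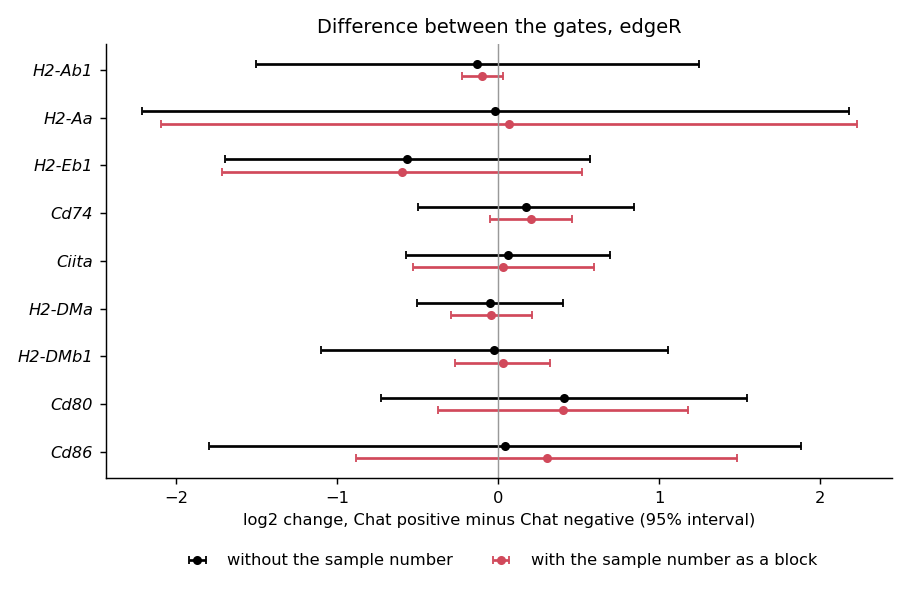
Log2 change of each gene, Chat positive minus Chat negative, with 95% intervals from edgeR (horizontal axis), without (black) and with (red) the sample number as a block. Every interval includes 0, and the block narrows that of H2-Ab1 most.

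More genes differed by number than by gate. The number terms of the blocked edgeR fit, tested after the values had been seen, passed for 32.5% of all genes and for 3 of the 9, H2-Ab1, H2-DMb1 and Cd74. For H2-Ab1 the fitted level of number 2 was 1.77 below that of number 1 on the log2 scale, and that of number 3 was 0.02 below (edgeR adjusted p = 2.78e-06). For H2-DMb1 number 2 was 1.36 and number 3 was 0.17 below number 1 (edgeR adjusted p = 5.90e-04). Cd74 went the other way, with number 2 at 0.29 above and number 3 at 0.53 below number 1 (edgeR adjusted p = 0.00507). The terms did not pass for H2-DMa (0.068), Cd86 (0.0795), Cd80 (0.110), H2-Eb1 (0.594), Ciita (0.678) or H2-Aa (0.841), given as edgeR adjusted p. A share of 3 in 9 is close to the background of 32.5%, so the 9 genes did not stand out in how often they differed by number. Without robust dispersions the same 3 genes passed, with 29.8% of all genes.

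The 9 genes took several different patterns over the 6 libraries. Of their 36 pairs, 21 had a correlation above 0, and 15 did not. An exact permutation test passed none of the 36 pairs (lowest adjusted p = 0.113), and nothing is read from that. The smallest p it can give with 6 libraries, 0.00139, cannot pass for a single pair after adjustment over 36. The libraries of number 2 also resembled each other, so the 6 libraries cannot be taken as independent. Coefficients are therefore not given. H2-Ab1, H2-DMa and H2-DMb1 were lower in both number 2 libraries than in the other 4. Cd74 and Cd80 were higher in both number 2 libraries than in the other 4, and H2-Aa, H2-Eb1, Ciita and Cd86 were neither. Such patterns were common, at 21.6% of all genes for lower and 28.5% for higher.

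**Figure D3:**
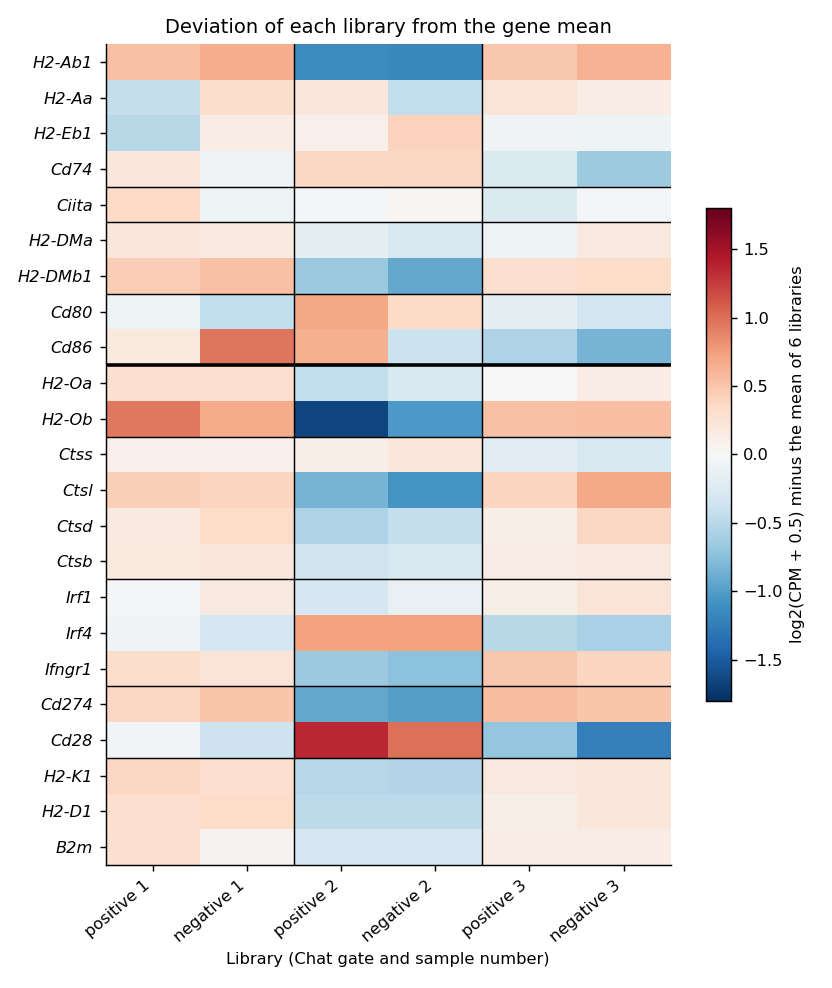
Deviation of log2(CPM + 0.5) from the mean of the 6 libraries (colour), for the 9 genes above the thick line and 14 genes of related lists below it. Columns are ordered by sample number, with the Chat positive library left of the Chat negative one. The number 2 columns are blue for H2-Ab1, H2-DMb1, H2-Ob, Ctsl, Ifngr1 and Cd274, and red for Cd80, Irf4 and Cd28, among others. Both number 2 libraries were also lower than all others for H2-DMa, H2-Oa, Ctsb, Ctsd, Irf1, H2-K1, H2-D1 and B2m. They were higher than all others for Cd74 and Ctss too.

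Ordered by length-scaled level, in CPM per kilobase over the 6 libraries, H2-Ab1 came first with 83.1 to 295 and overlapped no other of the 9 genes. Cd74 followed with 9.77 to 20.2, then H2-DMa with 8.61 to 12.2 and H2-DMb1 with 4.17 to 11.98, and these neighbours overlapped. Ciita (0.413 to 0.681), Cd86 (0.143 to 0.982), Cd80 (0.245 to 0.726) and H2-Eb1 (0.177 to 0.598) could not be placed apart from each other. H2-Aa came last with 0.0144 to 0.131. Cd74 thus had a lower length-scaled level than H2-Ab1 in every library. The class I heavy chain H2-K1 stood at 991 to 1855 and its partner B2m at 3941 to 5937, above every class II gene.

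**Figure D4:**
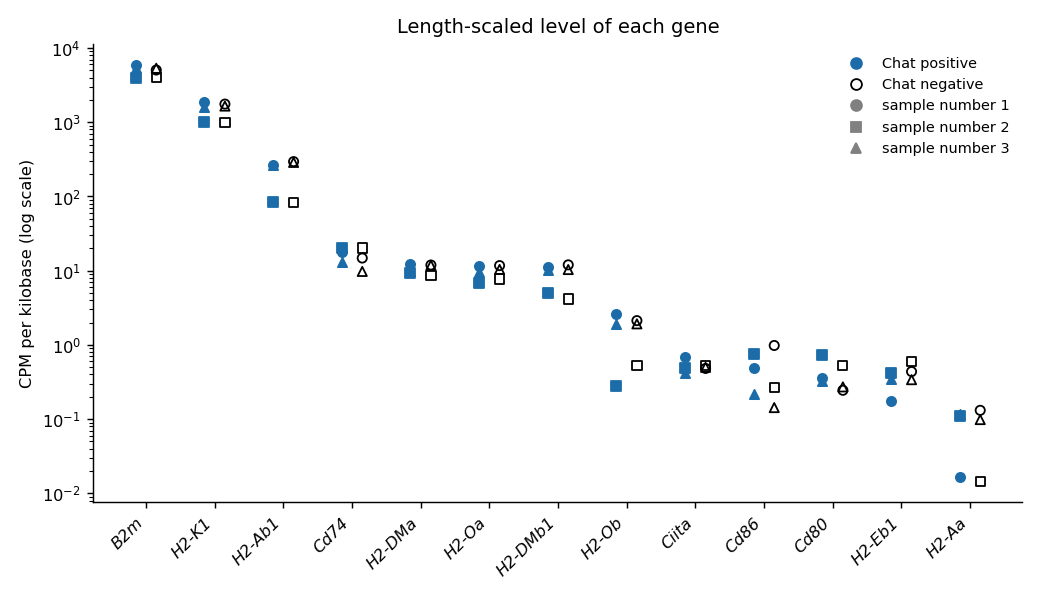
CPM per kilobase of the longest annotated transcript (vertical axis, log scale) for the 9 genes, H2-Oa and H2-Ob, with the class I genes B2m and H2-K1 at the left. Each point is a library, filled for Chat positive and open for Chat negative, with a shape for each sample number; H2-Ab1 lies between 83.1 and 295 and H2-Aa between 0.0144 and 0.131.

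Among other class II chains, the editor's inhibitor H2-DO is made of H2-Oa and H2-Ob, 2 genes known best from B cells. H2-Oa stood at 15.6, 9.17 and 12.7 CPM in Chat positive and 15.7, 10.4 and 13.9 CPM in Chat negative libraries 1 to 3. H2-Ob stood at 6.998, 0.735 and 5.11 CPM in Chat positive and 5.67, 1.39 and 5.13 CPM in Chat negative libraries 1 to 3. Both were lowest in number 2 within each gate, like H2-Ab1 and H2-DMb1, and both differed by number (edgeR adjusted p = 0.0144 for H2-Oa and 9.41e-04 for H2-Ob). Neither passed between the gates, and the list's other 3 genes had too few counts to be tested.

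Of the endosomal proteins that handle antigen and the invariant chain, none of 14 tested of 16 listed passed between the gates (median log2 change 0.00, 7 above 0). The aspartic protease Ctsd stood at 2958 ± 738 CPM in Chat positive and 3398 ± 952 in Chat negative cells, and Ctsb at 614 ± 118 and 627 ± 109 (SD, n = 3 each). The tetraspanin Cd82 stood at 826 ± 129 CPM in Chat positive and 763 ± 79.4 in Chat negative cells, and Ctsz at 513 ± 27.7 and 505 ± 15.8. By number, 10 of the 14 passed (32.5% of all genes did), 7 were lower and 6 higher in both number 2 libraries. For genes of a like level that share was not computed, and nothing is read from the excess. The proteases that finish the invariant chain differed in pattern. Ctsl, which does so in thymic epithelium, stood at 138, 56.7 and 134 CPM in Chat positive libraries 1 to 3 and at 133, 48.7 and 163.7 CPM in Chat negative libraries 1 to 3. Ctss, which does so in most antigen-presenting cells, stood at 91.1 ± 10.8 CPM in Chat positive and 91.1 ± 15.1 CPM in Chat negative cells (SD, n = 3 each), and was lowest in number 3 within each gate. Marchf1, a ligase that removes class II from the surface of dendritic and B cells, had 0 counts in every Chat positive library and 0, 1 and 2 counts in Chat negative libraries 1 to 3.

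The RFX subunits were measured in both gates. Of 20 genes for the promoter complex and for the control of Ciita in either direction, 19 were tested and none passed between the gates, with 5 of the 19 above 0 and a median log2 change of -0.06. Spi1, a transcription factor of myeloid and B cells, was not tested, at 0 to 12 counts per library. The RFX subunit Rfxap stood at 44.5 ± 3.05 CPM in Chat positive and 45.2 ± 2.91 CPM in Chat negative cells (SD, n = 3 each). Rfx5 stood at 11.9 ± 3.26 CPM in Chat positive and 12.3 ± 1.77 CPM in Chat negative cells. Rfxank, the subunit that completes the complex, stood at 11.3 ± 1.93 CPM in Chat positive and 12.6 ± 1.06 CPM in Chat negative cells. These 3 subunits overlapped between the gates.

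Interferon gamma acts through the kinases Jak1 and Jak2 to switch on Ciita. Jak1 stood at 1121 ± 112 CPM in Chat positive and 1240 ± 85.5 CPM in Chat negative cells (SD, n = 3 each). The receptor chain Ifngr1 stood at 210, 106 and 235 CPM in Chat positive and 197, 100 and 221 CPM in Chat negative libraries 1 to 3. Irf4, a transcription factor of activated lymphocytes, stood at 45.4, 79.0 and 33.6 CPM in Chat positive and 38.6, 79.4 and 31.5 CPM in Chat negative libraries 1 to 3. Ifngr1 was low in both number 2 libraries and Irf4 high (edgeR adjusted p of the number terms = 1.15e-05 and 6.09e-05). Of the 19 genes, 8 passed by number, where 32.5% of all genes did.

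Other ligands that T cells read beside class II were measured for 11 of 14 listed genes, with 6 above 0, a median log2 change of 0.02 and none past the threshold. Lgals9, a galectin, stood at 322 ± 7.45 CPM in Chat positive and 326 ± 13.4 CPM in Chat negative cells (SD, n = 3 each). Tnfsf14, the ligand LIGHT, was lower in every Chat positive library than in any Chat negative one, as were 3.04% of all genes. It stood at 22.6 ± 5.26 CPM in Chat positive and 31.3 ± 0.844 CPM in Chat negative cells (log2 change -0.49, edgeR adjusted p = 1). With the block the call depended on the tool. The adjusted p of Tnfsf14 was 0.153 in edgeR, 0.204 in edgeR without robust dispersions, 0.197 in limma-voom and 0.0303 in DESeq2. Cd274, the inhibitory ligand PD-L1, followed the numbers as H2-Ab1 did, at 65.1, 26.4 and 74.1 CPM in Chat positive and 71.3, 25.01 and 71.1 CPM in Chat negative libraries 1 to 3. Cd24a, a surface glycoprotein, did not pass without the block (edgeR adjusted p = 1). With the block its log2 change was 0.78 and the call depended on the tool, with an adjusted p of 0.042 in edgeR, 0.104 in edgeR without robust dispersions, 0.0856 in limma-voom and 1.53e-05 in DESeq2. It was higher in the Chat positive library for all 3 numbers, a pattern whose share over all genes was not computed.

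The receptors of Cd80 and Cd86 were measured in the same cells. Ctla4, the inhibitory receptor, stood at 135, 103 and 122 CPM in Chat positive libraries 1 to 3 and at 83.3, 80.4 and 77.9 CPM in Chat negative libraries 1 to 3. Every Chat positive library was above every Chat negative one, as for 5.28% of all genes. The log2 change was 0.56 (interval 0.26 to 0.87), with an edgeR adjusted p of 1 without the block. With the block the adjusted p was 0.042 in edgeR, 0.104 in edgeR without robust dispersions, 0.0856 in limma-voom and 5.12e-06 in DESeq2, so that the call depended on the tool. Cd28, the activating receptor, stood at 10.7, 29.4 and 6.70 CPM in Chat positive and 8.49, 22.6 and 4.47 CPM in Chat negative libraries 1 to 3. Like Cd80, it was high in both number 2 libraries.

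Class I presentation, which serves CD8 T cells, had none of 20 genes past the threshold, 10 above 0 and a median log2 change of 0.00. H2-K1 stood at 2779 ± 821 CPM in Chat positive and 2749 ± 778 CPM in Chat negative cells (SD, n = 3 each). H2-D1 stood at 3974 ± 1029 CPM in Chat positive and 4097 ± 1099 CPM in Chat negative cells. By number 13 of the 20 passed, against 32.5% of all genes, and 12 were lower in both number 2 libraries, against 21.6%. The share among genes of a like level was not computed, so nothing is read from the excess.

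Markers of ILC2s and of other cells known for class II were read in the same libraries. All 16 ILC2 markers were tested, and their summed level was 20810 to 26560 CPM in Chat positive and 18830 to 20790 CPM in Chat negative libraries. The largest part was the cytokine gene Il5, at 11220 ± 3102 CPM in Chat positive and 6957 ± 1275 CPM in Chat negative cells (SD, n = 3 each), with an edgeR adjusted p of 1. With the block Il5 and the IL-33 receptor gene Il1rl1 passed in edgeR (adjusted p = 0.0472 and 0.042), and neither did in edgeR without robust dispersions (0.0872 and 0.104) or limma-voom (0.0547 and 0.0856). In DESeq2 with the block the adjusted p was 0.131 for Il5 and 2.53e-06 for Il1rl1. Of 13 B cell markers 9 had at most 10 counts in any library, among them Ms4a1 and Pax5, and the summed level was 70.9 to 87.0 CPM in Chat positive and 67.0 to 73.5 CPM in Chat negative libraries. Nearly all of that was Cd79b, at 80.1 ± 8.75 CPM in Chat positive and 70.2 ± 3.18 CPM in Chat negative cells (SD, n = 3 each). Its partner Cd79a had 1 to 6 counts per library.

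Of 13 dendritic cell markers, Clec9a and Siglech were at 0 in all libraries and Flt3 had at most 1 count, and the summed level was 158 to 171 CPM in Chat positive and 148 to 156 CPM in Chat negative libraries. Most of it was Xcr1, a chemokine receptor, at 141 ± 8.07 CPM in Chat positive and 130 ± 7.21 CPM in Chat negative cells (SD, n = 3 each). Of 15 macrophage and monocyte markers, Ms4a7 was at 0 and 9 had at most 10 counts in any library, among them Lyz2, Csf1r and C1qa. The summed level was 580 to 878 CPM in Chat positive and 616 to 1048 CPM in Chat negative libraries, and most of it was Ccr2, which lymphocytes also express.

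Several markers were lower in both number 2 libraries than in the other 4, as H2-Ab1 was. These were 1 of 2 B cell, 3 of 7 dendritic cell and 4 of 5 macrophage markers tested, against 21.6% of all genes. Of the 16 ILC2 markers, 6 were also lower and 2 were higher. Among the macrophage markers that were lower was Ccr2, which lymphocytes also express. Cd209a, a lectin of dendritic cells, stood at 5.46, 0.377 and 7.03 CPM in Chat positive and 8.14, 0.116 and 6.95 CPM in Chat negative libraries 1 to 3. Cd68 stood at 15.7 ± 7.63 CPM in Chat positive and 15.6 ± 7.43 CPM in Chat negative cells (SD, n = 3 each), and its lowest library was at 7.01 CPM. Ccr7, on the dendritic cell list and also a receptor of lymphocytes, went the other way, at 4.12, 14.1 and 3.53 CPM in Chat positive and 4.89, 11.4 and 2.16 CPM in Chat negative libraries 1 to 3. The part of these markers in the H2-Ab1 difference between numbers was not tested.

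**Figure D5:**
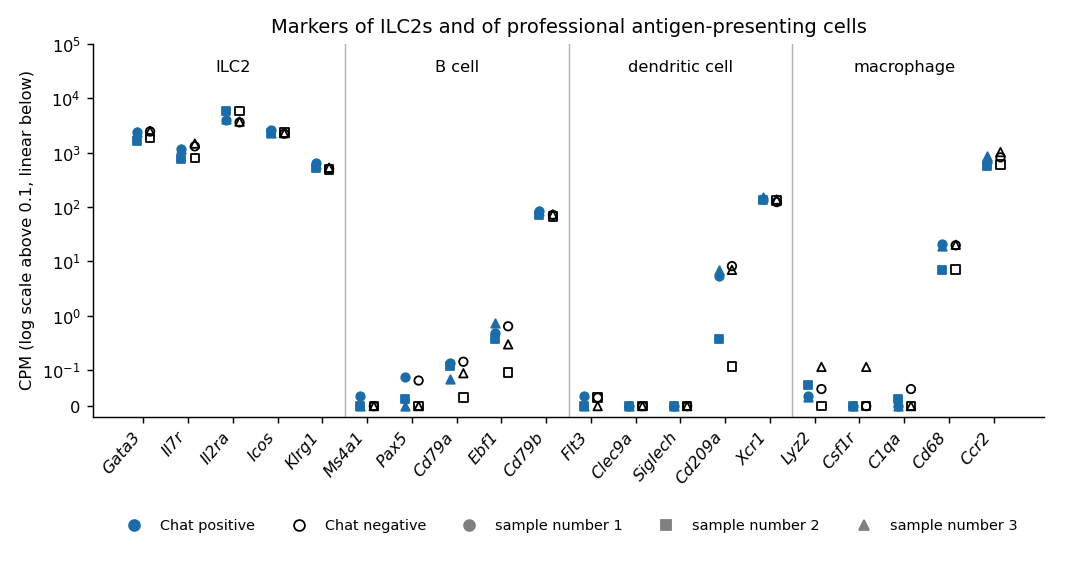
CPM of 5 markers each of ILC2s, B cells, dendritic cells and macrophages (vertical axis, logarithmic above 0.1 and linear below), filled for Chat positive and open for Chat negative libraries, with a shape for each sample number. The ILC2 markers are high in all 6 libraries, Ms4a1, Pax5, Flt3, Clec9a, Siglech, Lyz2, Csf1r and C1qa lie near 0, and Cd79b, Xcr1 and Ccr2 do not.

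Genes with the pattern most like a class II index, the mean z-score of H2-Ab1, H2-Aa, H2-Eb1 and Cd74 over the 6 libraries, were sought among 8372 genes of at least 10 CPM. By Pearson's r over the 6 libraries, given as a description, Rad9a came first with 0.970, followed by Pdpr with 0.964, Mkln1 with 0.959, Chd3 with 0.951, Meak7 with 0.947 and Slc20a2 with 0.942. Only 0.227% of the genes had an r above 0.9 with the index. The index averages genes of different patterns, with H2-Ab1 low and Cd74 high in number 2 and H2-Aa and H2-Eb1 at 2 to 43 counts, and is no measure of the class II level. For H2-Ab1 alone, a search added after the values were seen, Mfng came first with an r of 0.9985, then Impa2 with 0.9978 and P4ha2 with 0.9976. An r above 0.9 with H2-Ab1 was held by 9.79% of the genes and an r below -0.9 by 16.6%. Such likeness was thus common for H2-Ab1.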

How the data were processed

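RNA was sequenced from ILC2s of 2 sort gates, with 3 libraries each. The authors deposited 1 table of raw counts per Entrez gene ID; CASAVA 1.8.2, STAR 2.3.0 and the build mm10 (GRCm38) are named in the submitters' processing notes. Per the labels' protocols, libraries came from total RNA by a low-input Clontech SMARTer kit. The counting program and its strand setting were not given in the sources used here. Of 27179 IDs, 25275 matched RefSeq GRCm38.p6, from which names, coordinates and promoter windows were taken.

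CPM is a count divided by the library's total (37154269 to 50361306), and CPM per kilobase divides it by the longest GENCODE vM21 transcript. Counts were tested with edgeR 4.0.16 (quasi-likelihood, TMM, filterByExpr, robust dispersions, the gate as the only term), with Benjamini-Hochberg adjustment over 12967 genes and a threshold of 5%. Alternatives were the sample number as a block, DESeq2 1.42.0, limma-voom (limma 3.58.1), library size alone, other filters and libraries left out. Libraries of the same number deviated together from their gate means, with correlations over genes of 0.385, 0.776 and 0.521 for numbers 1 to 3, so the numbers were taken to pair the libraries. Across numbers, Chat positive 3 with Chat negative 1 gave 0.42 and Chat positive 1 with Chat negative 3 gave 0.286, so numbers 1 and 3 are not told apart, and only number 2 stands apart. Pairing is thus inferred from the data for number 2 alone, was assumed for numbers 1 and 3, and is not stated in the labels. The edgeR step without the block was tested on simulated counts that held no difference between numbers. That test does not cover the blocked fit or counts with such a difference.

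The 9 genes and all lists were chosen with earlier results of these data known. Named from each other list were up to 4 genes of highest mean CPM, from marker lists the 2 highest and those at 0, and the 6 most like the index. Chosen after their values were seen were Rfx5, Rfxap, Rfxank, Ifngr1, Irf4, Ctss, Ctsl, Marchf1, Tnfsf14, Cd274, Cd24a, Cd209a, Cd68, Ccr7, Spi1, Il5, Il1rl1, Rpl13 and Rpl4, and the marker genes named for low counts. Some listed genes are counted but not reported here by name. Intervals and the limit for a count of 0 cover counting error and these libraries only.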

Additional observations from a re-analysis of the deposited data

How the results depend on the processing

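None of the 9 genes passed the threshold between the gates in any alternative run that gave it an adjusted p. DESeq2 with the replicate block gave none for H2-Aa, H2-Eb1, Ciita, Cd80 and Cd86, so these could not pass there. Correlations of gene pairs and marker lists also gave 0 past the threshold throughout, but 6 or fewer libraries leave these tests almost no room to pass, and nothing is read from that. With a filter of 5 CPM in 3 libraries, 4 of the 9 were tested. The count over all genes was 1 in the report, 44 with the replicate block, 1 with the replicate block without robust dispersions, 1 with limma-voom and the replicate block, 4 with DESeq2, 476 with DESeq2 and the replicate block, 0 without both libraries of number 1 or of number 3, and 2 without both libraries of number 2. Leaving out 1 library gave 0 to 1 genes, with 0 when Chat positive 1, Chat positive 3, Chat negative 1 or Chat negative 3 was left out. The number of the 9 genes whose gates did not overlap was 0, and 0 to 2 with 1 library left out, namely 2 without Chat negative 2 and 1 without Chat negative 3. Gates separate more easily with fewer libraries. The share over all genes was not computed for these smaller sets, so nothing is read from these counts. Signs near 0 turned. H2-Aa turned to 0.00988 with library size alone, 0.0676 with the edgeR replicate block (robust or not), 0.0797 with the DESeq2 block, 0.115 with voom, 0.0734 with the voom block and 0.946 without both number 1 libraries. H2-DMb1 turned to 0.0285 with the edgeR block (robust or not), 0.0201 with the DESeq2 block, and 0.0302 and 0.00524 without both libraries of number 1 or 3. Ciita turned to -0.204 without number 1, H2-DMa to 0.0639 without number 3, and Cd86 to -0.698 without number 2 and -0.0401 without number 3. The cause was not tested. With 1 library left out, log2 changes ranged from -0.526 to 0.245 for H2-Ab1, -0.511 to 0.49 for H2-Aa, -0.816 to -0.294 for H2-Eb1, -0.0501 to 0.444 for Cd74, -0.169 to 0.194 for Ciita, -0.195 to 0.0396 for H2-DMa, -0.365 to 0.265 for H2-DMb1, -0.0347 to 0.836 for Cd80 and -0.403 to 1.22 for Cd86. Counts of 2 to 43 per library limit H2-Aa and H2-Eb1. Pairing by sample number changed no call among the 9 genes where the fit gave an adjusted p. The test of the number terms, the block without robust dispersions and the sets without both libraries of a number were chosen after seeing the data.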

Other observations

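Markers of other lymphoid and tissue cells were also read. Of 10 T cell markers, Cd8b1 was at 0, and the summed level was 87.35 to 160.1 CPM in Chat positive and 93.9 to 178.4 CPM in Chat negative libraries, led by Trbc2 at 79.6 ± 19.3 CPM in Chat positive and 92.7 ± 27.9 CPM in Chat negative cells (SD, n = 3 each). Cd3g, a chain of the T cell receptor complex, stood at 28.9 ± 12.5 CPM in Chat positive and 28.5 ± 10.3 CPM in Chat negative cells. Of 8 epithelial markers, Sftpc and Scgb1a1 were at 0, and Epcam, an adhesion molecule, stood at 46.7 ± 12.5 CPM in Chat positive and 67.5 ± 28.1 CPM in Chat negative cells, with Krt18 at 1.83 ± 0.730 CPM in Chat positive and 1.496 ± 0.648 CPM in Chat negative cells. None of these genes passed between the gates in edgeR.

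Among 8 ILC3 markers, Cxcr6, a chemokine receptor that ILC2s also express, made up nearly all of the signal, at 4393 ± 709 CPM in Chat positive and 3721 ± 359 CPM in Chat negative cells (SD, n = 3 each), and Il22 stood at 2.93 ± 1.34 CPM in Chat positive and 3.07 ± 2.49 CPM in Chat negative cells. Of 9 mast cell and basophil markers 5 were at 0 in all libraries (Cpa3, Ms4a2, Prss34, Tpsb2 and Mcpt4). Mcpt8, a basophil protease, stood at 123.4, 25.5 and 147 CPM in Chat positive and 133, 31.0 and 199 CPM in Chat negative libraries 1 to 3, low in both number 2 libraries as H2-Ab1 was (edgeR adjusted p of the number terms = 2.78e-06). The part of these markers in the H2-Ab1 difference between numbers was not tested.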
